A study of Arabidopsis thaliana with 6 samples.

Results

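The genes described are CAP proteins, small secreted proteins related to the pathogenesis-related protein PR-1, encoded on chromosomes 1, 2, 3 and 5 of Arabidopsis thaliana. The list held 10 loci, chosen by family and position, with earlier results of these data known. A probe set was assigned by the probe-to-gene table to 9 of them, of 13333 genes with such a probe set in all, and AT5G57625 had none and is not analysed here. Roots of hydroponically grown plants of the ecotype Col-0 were measured on 6 Affymetrix ATH1 arrays. Of these, 3 came from jars given 0.125 mM KAuCl4, a water-soluble gold(III) salt, and 3 from jars without gold, called untreated in the sample labels and given water per the design text. Plants of both groups had grown for 14 days in sealed sterile jars, many plants to a jar, so each array stands for a pool of roots. The sample labels give 24 h of exposure where the treatment protocol gives 6 h. Per the design text the jars were separate replicates.

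The CAP family takes its name from cysteine-rich secretory proteins, antigen 5 of wasp venom and plant PR-1, which share a compact fold held together by disulfide bonds. In plants these proteins enter the secretory pathway through a signal peptide and end up in the cell wall space or the vacuole. PR-1 itself is known as a marker of salicylate-dependent defence, it binds sterols, and a short peptide cut from the end of PR-1-type proteins acts as a signal in tomato and in Arabidopsis. For most of the other family members, these 9 included, no function is well established, and AT2G19990 is the only one of them whose symbol in the gene table, PR-1-LIKE, refers to PR-1.

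The deposited values are on a log scale, read here as log2, and were centred on the median of the 6 arrays for each probe set. They show differences between arrays and no expression levels, so whether a gene is expressed in these roots, or whether root markers are present, could not be judged. Without overlap of the groups, this centring gives the gold and no gold arrays nearest each other values of equal size and opposite sign. In genes lower with gold these are the highest gold and the lowest no gold array. One array differed in quality: for actin control transcripts the 5' probe set minus the 3' probe set came to -0.21, -1.02 and 0.13 on the gold arrays, against -4.89, 0.21 and 0.38 on the no gold arrays, the lowest value being that of no gold replicate 1. The number of arrays limits the precision, and with 3 arrays against 3 an exact permutation test of 1 gene (two-sided) cannot give a p below 0.1.

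Of the 9 measured genes, 4 fell with gold (AT1G50060, AT2G19970, AT1G50050 and AT2G19990), none rose and 5 did not pass the test, limma's moderated test over all 22746 probe sets with a Benjamini-Hochberg adjusted p below 0.05. Over all probe sets tested 10.9% passed as lower and 9.32% as higher. At an unadjusted p below 0.05, 0 of the 9 were higher. The share of all probe sets higher at that unadjusted threshold was not counted, so this count is a description. In the same 4 genes all gold arrays lay below all no gold arrays, a pattern that 21.6% of all probe sets showed. The falls were large: AT1G50060, AT2G19970 and AT1G50050 had the 53rd, 55th and 93rd most negative changes among the 22746 probe sets, and AT2G19990 the 475th. The median change of the 9 was -0.20, against -0.04 over all probe sets, since the other 5 genes lay near 0. Without the array of no gold replicate 1, the same test again called 4 of the 9 lower and 0 higher. Over all 22746 probe sets it then called 2717 lower and 2151 higher. The changes without that array were -3.75 for AT1G50060, -4.00 for AT2G19970, -3.25 for AT1G50050 and -2.25 for AT2G19990. RNA came from whole roots, so fewer cells of a type and less RNA per cell cannot be told apart.

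**Figure D1:**
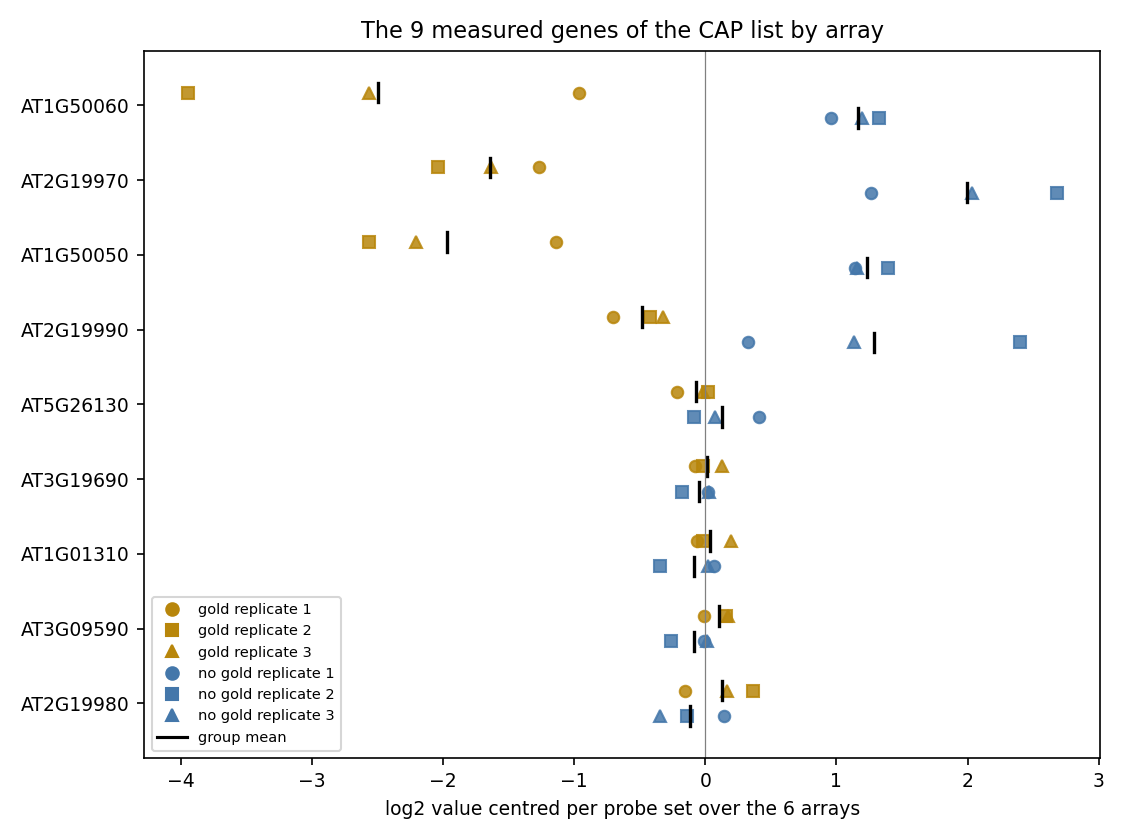
Centred log2 values (horizontal axis) of the 9 measured CAP genes on each array, with gold arrays in the upper line and no gold arrays in the lower line of each gene; symbols mark the replicate number and black bars the group means. In the upper 4 genes the gold and no gold arrays are apart, and in the lower 5 they overlap, with all values between -0.35 and 0.41.

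AT1G50060 and AT1G50050 are neighbours on chromosome 1, with 0 protein-coding genes between them in the TAIR10.1 gene table, and both fell. AT1G50060 had centred log2 values of -0.96, -3.95 and -2.57 on the gold arrays, against 0.96, 1.33 and 1.20 on the no gold arrays. The no gold arrays lay close together while the gold arrays spread over a wide range, with gold replicate 2 the lowest. The log2 change was -3.65 ± 0.64 (SE, n = 3 and 3; limma adjusted p = 0.00596), which is 12.6-fold lower with a 95% confidence interval of 4.50 to 35.2. The size depended on single gold arrays, with a log2 change of -4.42 without gold replicate 1 and -2.93 without gold replicate 2, both still passing (limma adjusted p = 0.000409 and 0.00567). The call depended on how the spread was estimated: with each probe set's own variance in place of limma's moderated one, the adjusted p was 0.0901.

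AT1G50050 had centred log2 values of -1.14, -2.57 and -2.21 on the gold arrays, against 1.14, 1.39 and 1.16 on the no gold arrays. As in AT1G50060, gold replicate 1 lay nearest to the no gold arrays and gold replicate 2 farthest from them. The change of -3.20 ± 0.34 (SE, n = 3 and 3; limma adjusted p = 0.000591) is 9.20-fold lower, with a 95% confidence interval of 5.32 to 15.9. The changes of these neighbours were not told apart. The value of AT1G50060 minus that of AT1G50050 averaged -0.52 ± 0.79 on the gold arrays and -0.07 ± 0.11 on the no gold arrays (SD, n = 3 each; two-sided exact permutation p = 0.5). Whether the probes of one neighbour also take up transcript of the other was not tested, although the probe set IDs of all 9 genes carry no suffix for shared sequence.

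The group on chromosome 2 was split. AT2G19970, AT2G19980 and AT2G19990 lie side by side, with 0 protein-coding genes between each and the next, and the outer 2 fell while the middle one did not pass. AT2G19970 had centred log2 values of -1.27, -2.04 and -1.63 on the gold arrays, against 1.27, 2.68 and 2.03 on the no gold arrays. Its groups were the farthest apart of the 9 genes, with a gap of 2.53 between the highest gold and the lowest no gold array. The change of -3.64 ± 0.36 (SE, n = 3 and 3; limma adjusted p = 0.00042) is 12.5-fold lower, with a 95% confidence interval of 6.97 to 22.3.

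AT2G19990, the gene with the symbol PR-1-LIKE, had centred log2 values of -0.70, -0.42 and -0.32 on the gold arrays, against 0.32, 2.40 and 1.13 on the no gold arrays. Here the gold arrays lay close together and the no gold arrays did not, no gold replicate 1 lying 0.65 above the nearest gold array and no gold replicate 2 far above that. The change was -1.77 ± 0.46 (SE, n = 3 and 3; limma adjusted p = 0.032), or 3.41-fold lower with a 95% confidence interval of 1.62 to 7.18. This was the least secure of the 4 calls. It was lost without no gold replicate 3 (limma adjusted p = 0.0705) and without gold replicate 1 (0.0723), 2 (0.0793) or 3 (0.0923), where the change was -1.85, -1.66, -1.80 and -1.85 in that order. It was lost also when the change was tested against a minimum of 1.5-fold (0.168) or with an ordinary variance (0.175). Without no gold replicate 1 the change was -2.25 (limma adjusted p = 0.0072), and without no gold replicate 2 it was -1.21 (0.0344).

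AT2G19980, between these genes, had centred log2 values of -0.16, 0.37 and 0.16 on the gold arrays, against 0.14, -0.14 and -0.35 on the no gold arrays. The groups overlapped, and the change was 0.24 ± 0.20 (SE, n = 3 and 3; limma adjusted p = 0.499), with a 95% confidence interval of -0.23 to 0.71. The change of AT2G19970 minus that of AT2G19980 was -3.88 on the log2 scale, and the change of AT2G19990 minus that of AT2G19980 was -2.01. In both pairs the differences within an array did not overlap between gold and no gold arrays. The difference of AT2G19970 minus AT2G19980 ran from -2.40 to -1.11 on the gold arrays and from 1.13 to 2.82 on the no gold arrays. Each gave a two-sided exact permutation p of 0.1, the smallest this design allows. The change of AT2G19970 minus that of AT2G19990 was -1.87, with the same exact permutation p of 0.1. These exact tests were adjusted by Benjamini-Hochberg over the 4 pairs compared on chromosomes 1 and 2. The adjusted values were 0.133 for the 3 pairs on chromosome 2 and 0.5 for the pair on chromosome 1. Since p cannot fall below 0.1 in this design, no pair could have passed the threshold. The adjusted values therefore do not decide whether the changes differ within a pair.

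**Figure D2:**
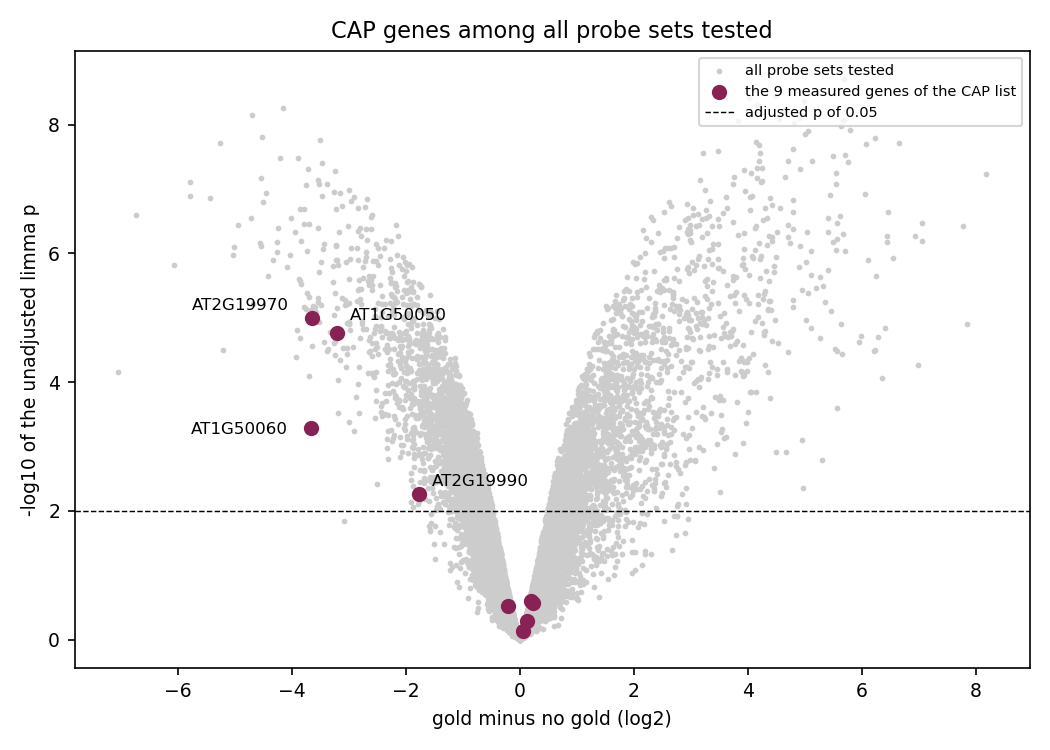
Change of each of the 22746 probe sets tested (horizontal axis, gold minus no gold, log2) against the -log10 of its unadjusted limma p (vertical axis), with the 9 measured CAP genes in dark red and a dashed line at an adjusted p of 0.05. AT1G50060, AT2G19970, AT1G50050 and AT2G19990 lie above the line on the lower side, and the other 5 lie at the foot of the cloud.

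The other CAP genes of the list each had a smaller range over the 6 arrays than the median probe set, 0.821. AT1G01310 on chromosome 1 had centred log2 values of -0.07, -0.02 and 0.19 on the gold arrays, against 0.07, -0.34 and 0.02 on the no gold arrays. AT3G09590 on chromosome 3 had -0.01, 0.16 and 0.17 on the gold arrays, against -0.01, -0.26 and 0.01 on the no gold arrays. In both genes no gold replicate 2 was the lowest array, whereas in the 4 genes that fell it was the highest of all 6. AT3G19690, the other gene of chromosome 3, had -0.08, -0.02 and 0.13 on the gold arrays, against 0.02, -0.17 and 0.02 on the no gold arrays. No gold replicate 2 was the lowest array in this gene too. The lowest array was no gold replicate 3 in AT2G19980 and gold replicate 1 in AT5G26130. The order of the arrays in these genes was not tested. AT5G26130 on chromosome 5 had -0.22, 0.02 and -0.02 on the gold arrays, against 0.41, -0.09 and 0.07 on the no gold arrays. It was the one gene of the 5 with a negative change, -0.20 ± 0.18 (SE, n = 3 and 3; limma adjusted p = 0.527). Without no gold replicate 1, its highest array, the change was -0.06 (limma adjusted p = 0.794).

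For the 5 genes that did not pass, AT2G19980 included, changes ran from -0.20 to 0.24 on the log2 scale and limma adjusted p from 0.476 to 0.867. Their 95% confidence intervals together reached from -0.62 to 0.71, so changes as large as those of AT1G50060, AT2G19970 and AT1G50050 lay outside each of them, on the scale of the deposited values. The range over the 6 arrays was 0.305 to 0.715 in these 5 genes, against a median of 0.821 and a lower quartile of 0.527 over all probe sets. Since levels were removed by the centring, a gene that is steadily expressed and one that is near background look alike in these values.

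The 4 falls had different spreads behind them. The SD of the gold arrays was 1.49 for AT1G50060, 0.741 for AT1G50050, 0.385 for AT2G19970 and 0.197 for AT2G19990. The SD of the no gold arrays was lower in the chromosome 1 pair than in the chromosome 2 pair, with 0.185 and 0.139 for AT1G50060 and AT1G50050, and 0.708 and 1.05 for AT2G19970 and AT2G19990. Thus the chromosome 1 pair was more variable among gold arrays and the chromosome 2 pair more variable among no gold arrays, a difference that was not tested. In AT1G50060, AT1G50050 and AT2G19970 gold replicate 1 was the gold array nearest to 0, and its centred values had the smallest SD of all arrays over all probe sets, 0.371, against 0.717 for gold replicate 2.

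**Figure D3:**
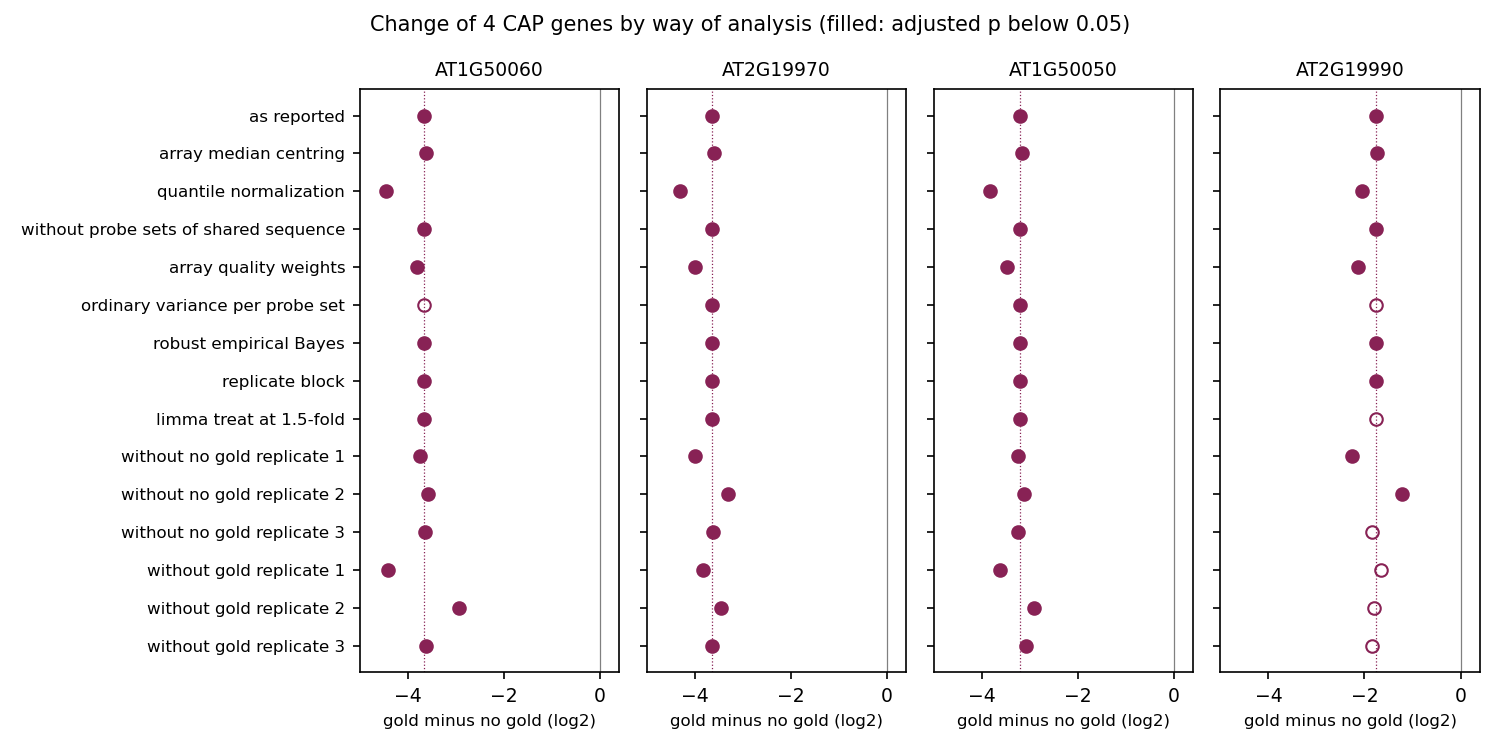
Change with gold (horizontal axis, gold minus no gold, log2) of the 4 CAP genes that fell, as reported and under 14 other ways of analysis listed on the vertical axis; filled points have an adjusted p below 0.05, and the dotted line marks the reported change. All points lie below 0, and open points occur once for AT1G50060 and 6 times for AT2G19990.

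AT1G50060 had the largest fall of the 9 by a narrow margin, at -3.65 against -3.64 for AT2G19970. Their order changed in some but not all of the other ways of analysis, with -3.75 and -4.00 without no gold replicate 1. The genes whose 6 centred values were nearest to those of AT1G50060 were sought among 13332 other genes with a named probe set. Nearness was the root mean square difference over the 6 arrays. The nearest was SKS15 (AT4G37160), of the SKU5-similar family of secreted proteins related to multicopper oxidases, at 0.316 on the log2 scale. AT1G52050 followed at 0.405 and AT4G25250 at 0.435. Their changes were -3.70, -3.92 and -3.65. Falls of a size near that of AT1G50060 follow from choosing genes by nearness to its values. AT1G50050 was the 7th nearest of all these genes, at 0.593, and AT2G19970 the 69th, at 1.10. AT2G19990 was farther away, in place 1276, at 1.79.

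Elsewhere in the family, 10 of 12 further CAP loci had a named probe set, and 7 of these fell, none rose and 3 did not pass. Over all probe sets tested 10.9% passed as lower and 9.32% as higher, as given above. AT4G25790 had the largest of these falls, at -3.88 ± 0.32 (SE, n = 3 and 3; limma adjusted p = 0.000178), followed by AT4G07820 at -3.19 and AT4G33730 at -2.59. PR-1 (AT2G14610) and AT2G14580 are the 2 loci not analysed here. The median change of the 10 was -1.62. Without the array of no gold replicate 1, 6 of the 10 fell, and AT5G66590 lost its call (limma adjusted p = 0.0604), with a change of -1.38 without that array and -1.47 with all 6.

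**Figure D4:**
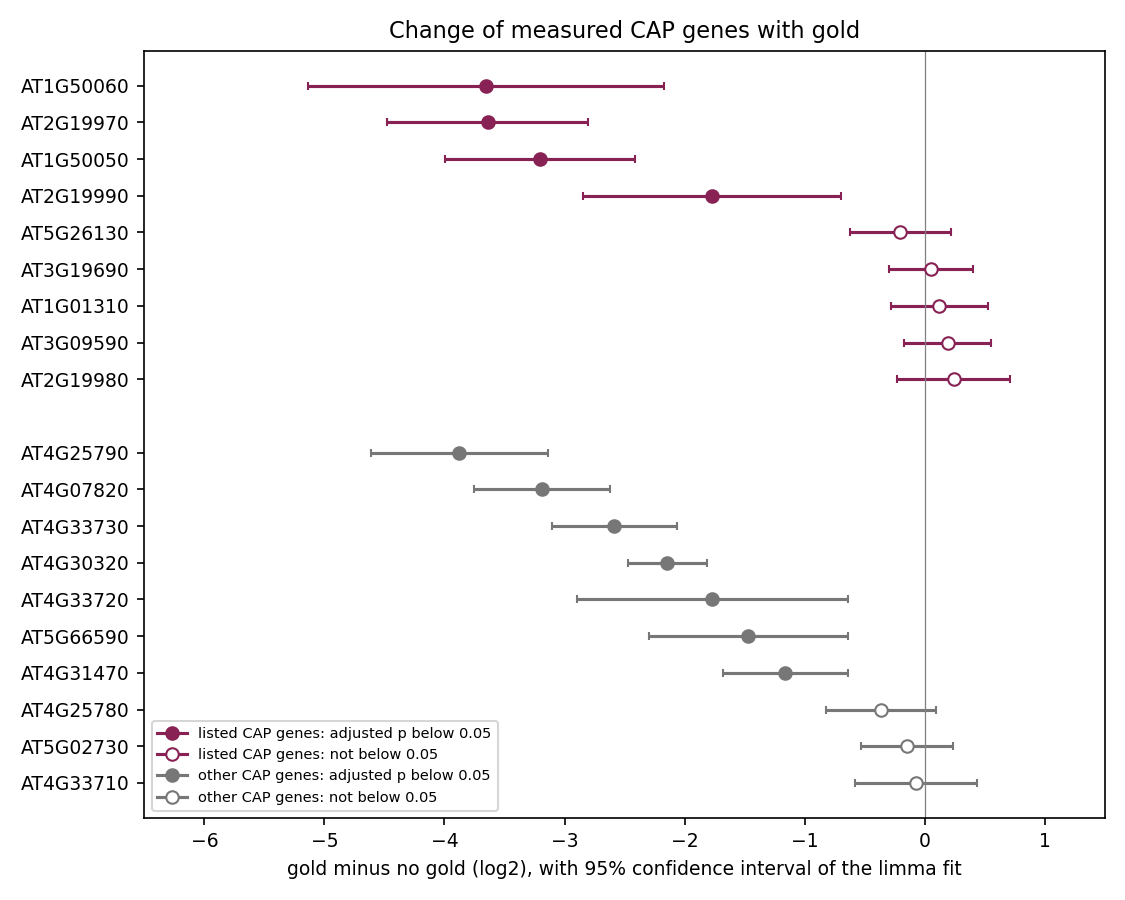
Change with gold (horizontal axis, gold minus no gold, log2; bars are 95% confidence intervals of the limma fit) of the 9 measured CAP genes of the list (dark red, above) and of 10 other measured CAP genes (grey, below); filled points have an adjusted p below 0.05. No gene of either set has a filled point above 0.

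Few genes linked to PR-1 through salicylate and defence could be identified on the arrays, since 8730 of the 22746 probe sets tested had no gene name here and may hold the others. Of 27 genes of salicylate synthesis and signalling 4 had a named probe set, of which 3 rose, none fell and 1 did not pass (median change 1.80, against -0.04 over all probe sets). The share of all probe sets that passed as higher was 9.32%. GRX480, a glutaredoxin that interacts with TGA transcription factors, had centred log2 values of 1.23, 3.98 and 2.48 on the gold arrays, against -1.23, -1.74 and -1.80 on the no gold arrays. It rose by 4.15 ± 0.60 (SE, n = 3 and 3; limma adjusted p = 0.0025). AT5G52810 rose by 1.95 ± 0.20, and the transcription factor gene WRKY53 by 1.64 ± 0.28. The lists were chosen with earlier results of these data known, so these counts are descriptions.

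Of 15 other classical pathogenesis-related genes 6 had a named probe set, of which 2 rose, none fell and 4 did not pass (median change 0.48). Here too the share to set beside the rises is 9.32% of all probe sets. LCR67, also called PDF1.1, a plant defensin, rose by 4.22 ± 0.31 (SE, n = 3 and 3; limma adjusted p = 0.000116). PDF1.2b rose by 0.67 ± 0.20 (limma adjusted p = 0.0496), close to the threshold. Its probe set carries the suffix for shared sequence, so other defensin transcripts may contribute to its signal. PDF1.2, whose probe set has no such suffix, did not pass, at 0.09 (limma adjusted p = 0.821).

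The markers with a named probe set, of root cell types and of shoot tissue, had lower mean values on the gold arrays, as the 4 CAP genes did. For comparison, 10.9% of all probe sets tested passed as lower, and in 21.6% all gold arrays lay below all no gold arrays. Of 6 root hair markers 2 had a named probe set and both fell, EXPA7 at -2.34 and EXPA18 at -2.36 on the log2 scale. The summed centred value of these 2 was -3.33 to -1.05 on the gold arrays and 1.05 to 3.18 on the no gold arrays. Of 5 shoot markers 2 had a named probe set: RCA fell, at -1.49, and PRK was at -1.48 without passing (limma adjusted p = 0.0737), and their sum was -1.51 to -0.57 on the gold arrays and 1.00 to 3.37 on the no gold arrays. Of 3 genes listed as root cap markers CR4 was the 1 with a named probe set. Whether CR4 marks that tissue alone was not tested. Its change was -0.54 (limma adjusted p = 0.0641), with values of -0.39 to -0.12 on the gold arrays and 0.12 to 0.53 on the no gold arrays. The 2 endodermis markers had no named probe set and were not analysed here. The part of these tissues in the falls of the CAP genes was not tested.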

How the data were processed

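Gene expression in roots was measured on 6 ATH1 arrays, 3 gold and 3 no gold. Per the labels' protocols, total RNA was extracted with a Qiagen kit for plants, and the cDNA was labelled with biotin by a MessageAmp kit. The deposited log2 values cover 22810 probe sets. In each of them the median over the arrays is 0 to within 1e-06, so the authors centred them. Base 2 was assumed. How probes were summarised and arrays scaled is not given in the sources. Background correction and a filter on dim probe sets need levels and were not run.

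The 64 control probe sets were dropped and the remaining 22746 entered limma 3.58.1 under R 4.3.3 (lmFit, eBayes; gold minus no gold, two-sided, Benjamini-Hochberg, threshold 0.05), without further scaling or filter. The fit was tested on simulated data. The platform annotation listed 14016 probe sets, 13513 with 1 gene and 503 with several, and 8730 tested probe sets were unnamed here. Gene IDs were matched to the TAIR10.1 table, used for names and neighbours alone. For genes with several probe sets, a probe set with no shared-sequence suffix was preferred, and among those the lowest ID.

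All 9 measured members are named. For the other lists, up to 3 passing genes by size of change are named, and for the CAP gene with the largest fall the 3 nearest genes. Marker lists give every measured gene, and AT5G66590 and PDF1.2 are named outside this rule, after their values were seen. Members and lists were chosen with earlier results of these data known. Same-numbered arrays were checked for pairing. Alternatives were array median centring, quantile normalization, probe sets of shared sequence left out, array quality weights, ordinary variance, robust empirical Bayes, a replicate block, limma treat at 1.5-fold and each array left out. Exact tests used scipy 1.17.1 in Python 3.11.15.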

Additional observations from a re-analysis of the deposited data

How the results depend on the processing

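All alternatives were planned. AT1G50050 and AT2G19970 kept their call and direction under all 14, with changes of -3.82 to -2.91 and -4.30 to -3.30 on the log2 scale (limma adjusted p, or the ordinary test's, up to 0.034 and 0.0308). Quantile normalization gave the largest fall of both. AT1G50060 ranged from -4.45 (quantile normalization) to -2.93 and AT2G19990 from -2.25 to -1.21. The count of CAP genes lower was 2 with an ordinary variance per probe set and 3 to 4 with 1 array left out. The count higher was 3 with array quality weights (AT1G01310, AT2G19980 and AT3G09590, at 0.36, 0.37 and 0.31) and 0 with each array left out in turn. With 1 array left out, AT1G01310 ranged from -0.00757 (without no gold replicate 2) to 0.198 and AT3G19690 from -0.00876 (without no gold replicate 2; -0.00262 without gold replicate 3) to 0.101; neither passed in any of these. Over all probe sets, 2121 were higher and 2480 lower as reported. Array quality weights gave 5442 and 6366, with a weight of 15.8 for gold replicate 3 and 0.155 for no gold replicate 1, treat gave 968 and 757, and the ordinary variance gave 922 and 1015. Leaving out 1 array gave 1262 to 2432 higher and 1258 to 2717 lower; the cause was not tested. Deviations from the group mean correlated at -0.11, -0.25 and 0.28 between arrays of the same replicate number, so the numbers were not taken to pair the jars; some arrays correlated better with another number. With the replicate block 3949 probe sets changed, against 4601, and 4 CAP genes fell. Signal over background could not be judged from centred values.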
